A study of Mus musculus with 2 samples.

Results

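The 9 genes described here mark the resident macrophages of the liver, the Kupffer cells: Clec4f, Cd5l, Csf1r, Emr1, Vsig4, Lyzs, C1qa, C1qb and Mpeg1. They were taken by name from the 27962 gene names of the array, with every probe that carries the name, and all 9 were among the 16730 genes tested. Emr1 is the array's name for Adgre1, and Lyzs is its name for Lyz2. Together they had 14 probes, with more than 1 probe for Csf1r, Emr1, Lyzs and Mpeg1. The liver RNA came from male apoE-KO mice of the strain C57BL/6, which at 10 weeks of age received normal chow or that chow with 1.25% Chol added (high-Chol diet) for 1 week. Every group thus carried the disrupted Apoe gene, and no wild-type liver was included. There were 3 independent experiments per diet, each measured on its own one-colour array. The RNA was that of whole liver, in which fewer cells of a type and less RNA per cell cannot be told apart.

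Kupffer cells line the liver sinusoids, where they take up particles, dying cells and modified lipoproteins from portal blood. Most of them derive from embryonic precursors and renew themselves in the liver under signals through the CSF1 receptor, while monocytes from the blood can enter the tissue and take on a macrophage identity. Clec4f is regarded as the marker most restricted to Kupffer cells, Vsig4 and Cd5l are shared with some other tissue macrophages, and Csf1r, Emr1, C1q, lysozyme and Mpeg1 are found in macrophages of many tissues. Lysozyme is also made by blood monocytes and granulocytes.

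The values below rest on what 60-base probes bound. The probes for Clec4f, for the second probe of Lyzs and for both C1q chains are shown because the contrast between Clec4f and lysozyme, and the likeness of the C1q chains, carry the results. Their positions, taken from the annotation of the array (mm7), are each on the minus strand, at chr6:83670672-83670730 for Clec4f, chr10:116790004-116790063 for Lyzs, chr4:136274931-136274990 for C1qa and chr4:136259100-136259159 for C1qb. The annotated span of the Clec4f probe is 59 bases. No letter is in capitals, since no part of a probe was singled out.
Clec4f probe: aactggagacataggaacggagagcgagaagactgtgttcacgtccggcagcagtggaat
Lyzs second probe: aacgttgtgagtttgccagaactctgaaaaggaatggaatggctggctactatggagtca
C1qa probe: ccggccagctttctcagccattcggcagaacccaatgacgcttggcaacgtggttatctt
C1qb probe: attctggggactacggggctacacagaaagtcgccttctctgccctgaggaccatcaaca

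Promoters were looked up because the 9 genes all had higher means on the high-Chol diet. Of the 9 genes, 6 had a promoter sequence in the RefSeq table used (GRCm38.p6), namely Clec4f, Cd5l, Vsig4, Lyzs, C1qb and Mpeg1, and not Csf1r, Emr1 and C1qa. The 250 bases before the start were searched on both strands for GAGGAA, the core bound by PU.1 (the product of Sfpi1). It was found in Cd5l, Vsig4 and C1qb (3 of 6) and in 23.3% of all 32851 promoters. A search for the LXR element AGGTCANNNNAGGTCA found no match in the 6 promoters and one in 0.0152% of all. At so low a share, finding none in 6 promoters carries no information on LXR. The promoters with a match are printed, at chr3:87357631-87357880 (plus strand) for Cd5l, chrX:96293439-96293688 (minus strand) for Vsig4 and chr4:136886201-136886450 (minus strand) for C1qb, with matches to GAGGAA on either strand in capitals.
Cd5l promoter: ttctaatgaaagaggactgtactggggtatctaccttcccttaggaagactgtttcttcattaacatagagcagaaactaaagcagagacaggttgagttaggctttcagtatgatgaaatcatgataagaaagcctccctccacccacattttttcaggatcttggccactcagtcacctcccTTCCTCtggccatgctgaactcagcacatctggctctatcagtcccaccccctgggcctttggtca
Vsig4 promoter: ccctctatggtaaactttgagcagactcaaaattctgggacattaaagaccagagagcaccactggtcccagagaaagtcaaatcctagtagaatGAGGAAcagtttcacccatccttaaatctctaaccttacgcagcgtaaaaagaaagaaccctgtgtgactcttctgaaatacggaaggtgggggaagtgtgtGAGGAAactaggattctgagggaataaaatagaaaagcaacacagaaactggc
C1qb promoter: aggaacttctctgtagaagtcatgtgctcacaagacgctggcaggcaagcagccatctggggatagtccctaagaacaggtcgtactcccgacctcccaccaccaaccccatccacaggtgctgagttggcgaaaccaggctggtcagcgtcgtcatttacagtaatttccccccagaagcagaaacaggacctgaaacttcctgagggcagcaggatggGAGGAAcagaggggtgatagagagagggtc
The core began 66 bases before the start in Cd5l, 155 and 53 bases before it in Vsig4 and 30 bases before it in C1qb. Matches are a description of these letters and not of binding.

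All values below are log2 signals relative to the 75th percentile of the array's own spots, and a difference is high-Chol diet minus normal chow on that scale. The 3 normal chow arrays and 1 high-Chol array shared a slide (slide 1), and the other two high-Chol arrays were on a second slide (slide 2) whose files name another version of the scanning software. The 75th percentile of signal was 271 to 373 on slide 1 and 762 to 799 on slide 2, and 50.5 to 67.2% of spots were well above background. Since the second slide held high-Chol arrays alone, differences of the 9 genes are also given on slide 1 alone, where 1 high-Chol array faces 3 normal chow arrays. Arrays are named by diet and slide position order (normal chow 1 to 3, high-Chol 1 on slide 1, high-Chol 2 and 3 on slide 2). The liver marker Alb was well above background on every array. The probe for Apoe, the disrupted gene, gave signal clearly over background on each of the 6 arrays (1.66 to 3.81). Without a wild-type array its level neither bears out the label nor goes against it. Where the probe lies relative to the disruption is not given in the sources used here. Its signal overlapped between the diets (difference 0.39, standard error 0.52, limma adjusted p = 0.671).

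On the high-Chol diet all 9 genes had a higher mean than on normal chow, and also on slide 1 alone. By limma with Benjamini-Hochberg adjustment over all genes, 3 of the 9 were called higher (Lyzs, Cd5l and Mpeg1) and 0 lower, against 2.69% and 0.227% of all genes tested. At an unadjusted p under 0.05, 7 of the 9 were higher, all but Clec4f and Csf1r, and 0 lower, against 12.3% and 8.83% of all genes tested. In 7 of the 9 every high-Chol array lay above every normal chow array, which was so for 11.9% of the genes with values on all arrays, while 0 of the 9 lay wholly below, against 14.0%. At an unadjusted p under 0.05, 5 of the 9 were higher with a normexp background correction and 3 with the arrays scaled to their medians. Under either, 5 were without overlap. The shares of all genes above belong to the scale of the 75th percentile, and none is given for these settings. The brightest probe of each of the 9 was well above background on every array that gave a value. The 2 genes not counted as without overlap, on the scale of the 75th percentile, were Csf1r, whose diets overlapped, and Emr1, which lacked a value on 1 array. The median difference of the 9 genes was 0.61, beside -0.02 over all genes tested, and with the arrays scaled to their medians these were 0.37 and -0.26. The sum of their linear signals, in log2, ran from 7.47 to 7.72 with normal chow and from 8.60 to 9.08 with the high-Chol diet, where high-Chol 2 lacks Emr1. Lyzs and Cd5l were the brightest of the 9 on every array and weigh most in this sum.

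**Figure D1:**
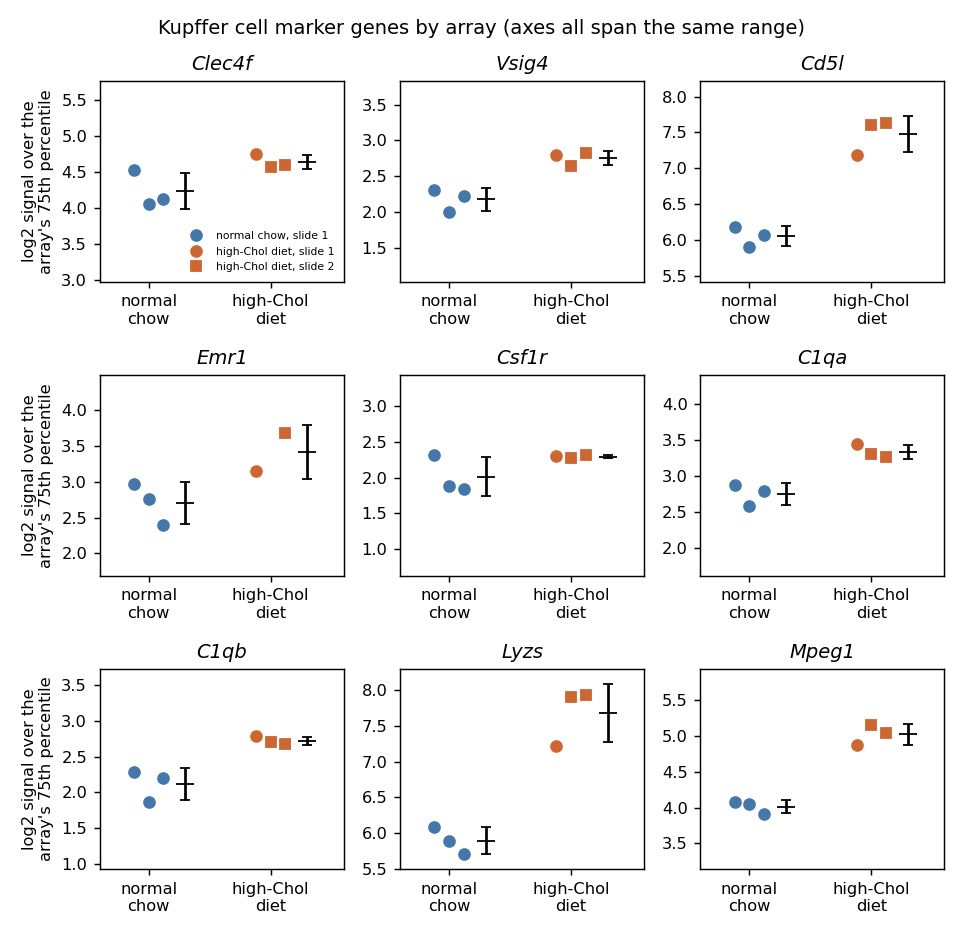
Log2 signal over the array's 75th percentile for each of the 9 genes (brightest probe), with normal chow in blue, high-Chol diet in orange, circles for slide 1, squares for slide 2, and bars for mean ± SD. The steps of Lyzs, Cd5l and Mpeg1 (1.78, 1.42 and 1.01) exceed those of Clec4f and Csf1r (0.41 and 0.28), and Emr1 has 2 high-Chol arrays.

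Clec4f, a C-type lectin that binds galactose-bearing glycans, had signals of 4.53, 4.06 and 4.13 on normal chow and of 4.76, 4.58 and 4.61 on the high-Chol diet. The diets did not overlap, but high-Chol 2 lay only just above normal chow 1. The means were 4.24 ± 0.25 (SD, n = 3) and 4.65 ± 0.10 (SD, n = 3). The difference of 0.41 (standard error 0.18), or 1.33-fold, did not pass the threshold (limma adjusted p = 0.240), and it was 0.52 on slide 1.

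Vsig4, the complement receptor CRIg that captures C3b-coated particles from the blood, stood at 2.31, 2.00 and 2.23 on normal chow and at 2.80, 2.65 and 2.82 on the high-Chol diet. The 3 high-Chol arrays lay close together and above all normal chow arrays. The difference was 0.58 (standard error 0.15), or 1.49-fold, with a limma adjusted p of 0.115, and 0.62 on slide 1.

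Cd5l encodes AIM, a secreted scavenger-receptor protein of tissue macrophages that supports their survival and is a known target of LXR. It was at 6.19, 5.91 and 6.07 on normal chow and at 7.19, 7.60 and 7.64 on the high-Chol diet. The gap between the diets was far wider than the spread within either, and the high-Chol array of slide 1 was the lowest of its diet. The rise of 1.42 (standard error 0.18), or 2.67-fold, passed the threshold (limma adjusted p = 0.0123). On slide 1 the difference was 1.13.

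Emr1 encodes the adhesion G protein-coupled receptor by which mouse macrophages are commonly stained. Its brighter probe was at 2.96, 2.75 and 2.39 on normal chow and at 3.15 and 3.68 on high-Chol 1 and 3, since the spot of high-Chol 2 was marked as an outlier by the software and was left out. Both measured high-Chol arrays lay above normal chow, and the difference of 0.71 (standard error 0.26), fitted on 5 arrays, gave a limma adjusted p of 0.203 and was 0.45 on slide 1. Its other probe, well above background on 2 of the normal chow arrays, was at -0.42, -5.02 and -4.21 on normal chow and at -3.46, -3.09 and -3.04 on the high-Chol diet. There the first normal chow array stood far above the rest, and the difference was 0.02 (standard error 1.06). The 2 probes of Emr1 thus gave no common account, and with their mean in place of the brighter one the difference was -0.72, a value for which high-Chol 2 is represented by the dimmer probe alone.

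Csf1r, the receptor for CSF1 and IL-34 on which Kupffer cells depend, was at 2.32, 1.88 and 1.84 on normal chow and at 2.30, 2.27 and 2.31 on the high-Chol diet. The first normal chow array lay above all 3 high-Chol arrays, so the diets overlapped. The difference of 0.28 (standard error 0.18) was the smallest of the 9 genes, with a limma adjusted p of 0.378, and it was 0.29 on slide 1. Without normal chow 1 the difference was 0.44 and the diets no longer overlapped. The difference was 0.21 without normal chow 2, 0.19 without normal chow 3 and 0.04 with the arrays scaled to their medians. A second probe, well above background on every array, gave 0.39 (limma adjusted p = 0.377 among all probes). The dimmest probe was so on 1 of the normal chow arrays, and its means of -4.69 and -4.06 are given without a call.

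C1qa and C1qb encode chains of C1q, the recognition protein of the classical complement pathway, which in liver is made chiefly by macrophages. C1qa stood at 2.87, 2.58 and 2.80 on normal chow and at 3.45, 3.31 and 3.26 on the high-Chol diet. C1qb stood at 2.28, 1.87 and 2.20 on normal chow and at 2.78, 2.71 and 2.67 on the high-Chol diet. In both, all high-Chol arrays lay above all normal chow arrays, with the array of slide 1 the highest. The differences were nearly equal at 0.59 (standard error 0.15, limma adjusted p = 0.105) for C1qa and 0.61 (standard error 0.16, limma adjusted p = 0.117) for C1qb, and neither passed the threshold. On slide 1 they were 0.70 and 0.67. The gene of the third chain, C1qc, was called higher, with a difference of 0.93 (standard error 0.15, limma adjusted p = 0.0291).

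Lyzs, the lysozyme gene that is expressed in macrophages, monocytes and granulocytes, showed the greatest difference of the 9 genes. It was at 6.09, 5.90 and 5.71 on normal chow and at 7.21, 7.90 and 7.93 on the high-Chol diet. All high-Chol arrays lay more than 1 log2 unit above normal chow, and the array of slide 1 was again the lowest of its diet. The rise was 1.78 (standard error 0.23), or 3.44-fold, with a limma adjusted p of 0.0133. The second probe, printed above, gave 1.83 (limma adjusted p = 0.0266 among all probes). On slide 1 the differences of the 2 probes were 1.32 and 1.21. A probe listed for the paralog Lyz1 rose by 1.81 (limma adjusted p = 0.00732), a call that the slide block ended (0.0831), but its annotation names transcripts of both genes, so that signal of the near-identical lysozymes is uncertain as to its gene.

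Mpeg1 encodes perforin-2, a pore-forming protein of the phagosome. It was at 4.08, 4.04 and 3.91 on normal chow and at 4.87, 5.16 and 5.04 on the high-Chol diet. The normal chow arrays differed among themselves by far less than they did from any high-Chol array. The rise was 1.01 (standard error 0.15), or 2.02-fold, with a limma adjusted p of 0.0200, and the difference was 0.86 on slide 1. Its dimmer probe was well above background on 2 of the normal chow arrays and entered the test through the high-Chol arrays, so its means of -3.52 and -2.25 are given without a call.

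**Figure D2:**
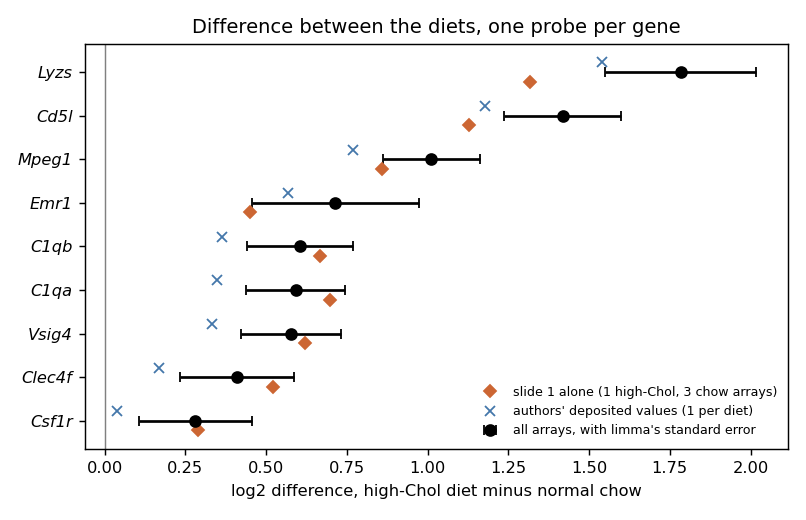
Log2 difference, high-Chol diet minus normal chow, for the 9 genes (brightest probe): all arrays with limma's standard error (black), slide 1 alone (orange) and the authors' deposited values (blue crosses). All points lie above 0. Lyzs, Cd5l and Mpeg1 lead in each, and for these genes slide 1 gives a smaller difference than all arrays.

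The calls of Lyzs, Cd5l and Mpeg1 rested on the full set of arrays. With slide as a block, in which slide 1 alone carries the difference, none of them passed the threshold (limma adjusted p = 0.106, 0.120 and 0.203 for Lyzs, Cd5l and Mpeg1). All 3 calls were also lost without normal chow 2, normal chow 3, high-Chol 2 or high-Chol 3 (limma adjusted p between 0.0558 and 0.103), Mpeg1 alone was lost without normal chow 1 (0.0570), and all 3 were kept without high-Chol 1. Across these fits the differences stayed between 0.86 and 2.02. The calls over all genes moved as well, from 42 higher and 0 lower without normal chow 2 to 2316 and 761 without high-Chol 1.

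To see whether the genes moved by unequal amounts, each was set against Clec4f on the same array, where any scaling of the array cancels. The log2 ratio to Clec4f of Lyzs was 1.56, 1.84 and 1.58 for normal chow and 2.46, 3.32 and 3.32 for the high-Chol diet, so that it differed by 1.37. The ratio of Cd5l rose from 1.66, 1.85 and 1.95 to 2.43, 3.02 and 3.03, a difference of 1.01. That of Mpeg1 was -0.45, -0.01 and -0.22 for normal chow and 0.11, 0.58 and 0.44 for the high-Chol diet, differing by 0.60. In these 3 genes the ratios did not overlap between the diets, and on slide 1 the differences were 0.80, 0.61 and 0.34. The share of all genes whose ratio to Clec4f rose without overlap is not given, so this count cannot be set against it. For Vsig4, C1qa and C1qb the ratios overlapped, with differences of 0.17, 0.18 and 0.19, and for Emr1 the difference was 0.27 with 2 high-Chol arrays. The ratio of Csf1r was lower on every high-Chol array, by 0.13 in the mean, although its highest high-Chol value (-2.30) lay next to its lowest normal chow value (-2.29). The exact two-sided permutation test gave p = 0.1 for Lyzs, Cd5l, Mpeg1 and Csf1r, the smallest value that 3 arrays against 3 allow, and 0.2 to 0.5 for the others, and no ratio passed the threshold after adjustment over the 8 ratios (adjusted p = 0.2 at the lowest).

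**Figure D3:**
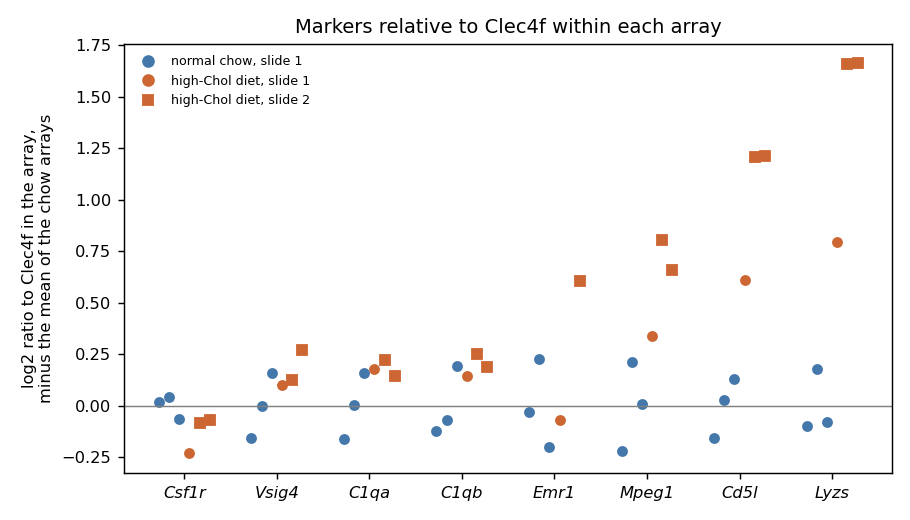
Log2 ratio of each of the other 8 genes to Clec4f within an array, minus the mean ratio of the normal chow arrays, with colours for diets, circles for slide 1 and squares for slide 2. Vsig4, C1qa and C1qb overlap between diets (differences 0.17 to 0.19), while Mpeg1, Cd5l and Lyzs stand clear of 0 (0.60, 1.01 and 1.37) with the slide 2 arrays highest.

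Across the 6 arrays Clec4f was most closely followed, among 14043 genes well above background on all of them, by Atp2b2, Pi4k2a, 3110048E14Rik, Tmem51 and Ddc, with Pearson's r of 0.987 to 0.989 and differences of 1.47, 0.21, 0.50, 0.43 and 1.42. These correlations are a description over 6 arrays that share slides and diets. Emr1 lacks a value on 1 array and was not ranked. Of the other 7 marker genes Csf1r came nearest (r = 0.949, place 52), followed by C1qb, C1qa and Vsig4 (0.912, 0.912 and 0.901), while Cd5l, Mpeg1 and Lyzs (0.789, 0.779 and 0.765) lay at places 639 to 770.

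Among 15 further genes of Kupffer cells, 14 had a higher mean on the high-Chol diet (11 on slide 1 alone), 4 were called higher by limma and 0 lower (2.69% and 0.227% of all genes tested), with a median difference of 0.80. With slide as a block 0 of these calls were kept and the median was 0.53. Marco, a scavenger receptor, rose by 1.83 (limma adjusted p = 0.0351). Spic, the transcription factor of iron-recycling macrophages, rose by 1.25 (0.0463), Il18bp, the antagonist of IL-18, by 1.04 (0.0187), and C1qc by 0.93 as given above. Timd4, a phosphatidylserine receptor of long-resident Kupffer cells, was at -0.53, -0.14 and -0.59 on normal chow and at 0.23, 0.61 and 0.47 on the high-Chol diet, with no overlap and a limma adjusted p of 0.0689. Cd163, the haemoglobin scavenger receptor, was the exception with a lower mean, at -0.27, 0.02 and -0.40 on normal chow and at -1.39, -1.49 and -0.51 on the high-Chol diet. Its diets did not overlap, and the difference of -0.91 had a limma adjusted p of 0.155. Nr1h3, which encodes LXR alpha, differed by 0.01 (standard error 0.17).

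Of the 9 tested genes around the CSF1 receptor, 8 were well above background on every array, and of these 6 had a higher mean (4 on slide 1 alone) and 3 were called higher and 0 lower, beside the same 2.69% and 0.227% of all genes, with a median difference of 0.80. With slide as a block 0 of these calls were kept and the median was 0.11. The ligand Csf1 rose by 1.08 (limma adjusted p = 0.0440), whereas the difference of the other ligand, Il34, was -0.23 (0.434). Tyrobp, the adaptor DAP12, rose by 1.62 (0.00895), and Irf8 by 1.10 (0.0472). Sfpi1, which encodes PU.1, was well above background on 1 of the normal chow arrays and entered the test through the high-Chol arrays, so its means of -4.68 and -3.46 are given without a call. The receptor itself, Csf1r, did not pass the threshold.

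Of the 6 genes of the C1 complex, 1 was called higher and 0 lower, beside 2.69% and 0.227% of all genes tested. The called gene was C1qc, and this call was lost with slide as a block (limma adjusted p = 0.274). All 3 C1q chains had higher means, while the difference was -0.06 for C1r and -0.25 for C1s, the proteases of the complex that hepatocytes also make, and -0.41 for the inhibitor gene Serping1 (limma adjusted p = 0.894, 0.372 and 0.236). C1qc was the only 1 of the 6 past the threshold, and no difference between the chains and their partners was tested.

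Lists of broader myeloid genes and of monocytes and neutrophils were compared in the same way. Kupffer cells also express many genes of the broad list. The share of all genes called was again 2.69% higher and 0.227% lower. In each list the genes well above background on every array are counted first, since the others entered the test through the diet in which they were brighter. Of 15 broad macrophage and myeloid genes 13 were of this kind, all with higher means (12 on slide 1 alone), 8 of them called higher, with a median difference of 1.18. Among them were Lgals3, which encodes galectin-3, at 2.98 (limma adjusted p = 0.00497) and the lysosomal protein gene Cd68 at 1.74 (0.00601). Itgax, which encodes CD11c, and Ms4a7 were well above background on 2 of the normal chow arrays, with means of -4.11 and -3.05 on normal chow against -0.85 and -0.70 for the high-Chol diet. Of 6 tested genes of recruited monocytes 4 were well above background on every array, all with higher means and a median of 0.69, and 1 was called, S100a4 at 2.53 (0.00601). Ccr2, the chemokine receptor of inflammatory monocytes, and Cx3cr1 were so on 1 of the normal chow arrays, and the means of Ccr2 were -4.75 and -1.73. The summed signal of the 4 genes counted first, in log2, ran from 2.94 to 3.29 with normal chow and from 3.80 to 3.92 with the high-Chol diet, and Itgam did not pass the filter on dim probes. Of 4 tested neutrophil genes 3 were well above background on every array and 2 were called. These were S100a8 at 3.21 (0.00553) and S100a9 at 2.90 (0.00390). The remaining gene of the 3, Mpo, differed by 0.48 (limma adjusted p = 0.256) with overlap between the diets, and by 0.03 on slide 1. The summed signal of the 3 ran from 0.64 to 0.80 with normal chow and from 3.21 to 3.94 with the high-Chol diet. S100a9 was the brightest of them on every array. The granule genes Ngp, Camp and Elane did not pass the filter. With slide as a block 0 calls were kept in these 3 lists, and the medians of the genes counted first were 0.87, 0.58 and 2.83. The part of such cells in the rise of Lyzs, Mpeg1 and Cd5l was not tested.

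Genes of hepatocytes, other liver cells and lymphocytes are given beside the 2.69% of all genes called higher and the 0.227% called lower. At these shares, lists this short would often hold 0 calls, so such counts set no list apart. Of 8 hepatocyte genes 0 were called in either direction, with a median of -0.32, and Alb differed by -0.34 (limma adjusted p = 0.262). At an unadjusted p under 0.05, 1 of them was higher and 2 were lower, beside 12.3% and 8.83% of all genes tested, which also stand beside the unadjusted counts of the lists that follow. Of 8 genes of sinusoidal endothelium 0 were called (median 0.21, with 1 higher at an unadjusted p under 0.05), and of 7 of stellate cells 1 was called, Col1a1, at 1.04 (0.0257, and 0.148 with slide as a block). Of 4 cholangiocyte genes, 6 T cell genes and 4 B cell genes 0 were called, and 4, 2 and 3 of them were well above background on every array. Among these the medians were -0.32, 0.38 and 0.61, and at an unadjusted p under 0.05 they gave 1 lower cholangiocyte gene, no T cell gene and 1 higher B cell gene. These lists share a few genes with each other (Csf1r, C1qa and C1qb with the 9 markers, C1qc and Tyrobp between lists) and were not tested as sets.

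**Figure D4:**
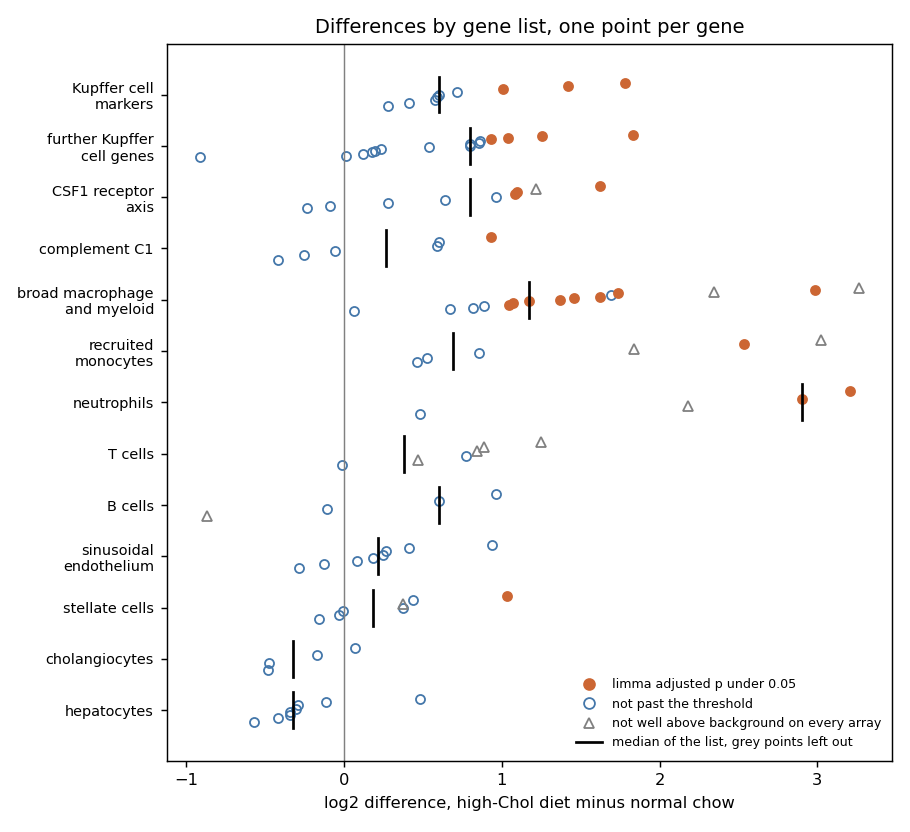
Log2 difference, high-Chol diet minus normal chow, of every tested gene by list, with filled points for limma adjusted p under 0.05, open circles otherwise, grey triangles for genes not well above background on every array, and a bar at the median of each list without the triangles. The Kupffer cell markers (median 0.61) lie between the broad myeloid genes (1.18) and the hepatocyte genes (-0.32).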

How the data were processed

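Liver RNA of apoE-KO mice was measured on 6 one-colour Agilent arrays, 3 per diet. For each array the deposited file holds spot intensity values that the Agilent Feature Extraction software had corrected for background (version 9.5 per the file headers for slide 1 and 9.1 for slide 2; 9.1 in the submitters' processing notes). A further table by the authors holds log2 values made in Gene Spring GX, with a column per diet, and was used for differences alone. Control spots and spots marked as outliers were left out. The log2 signal was taken relative to each array's 75th percentile over spots that are not controls, and spots of a probe were averaged. A probe was kept if it exceeded background clearly (the software's mark) in every array of either diet. The kept probe with the highest mean stood for its gene, which gave 16730 genes.

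The comparison used limma (version 3.58.1, in R 4.3.3) without covariates (linear model, empirical Bayes variance, Benjamini-Hochberg adjustment over all genes, threshold 0.05), after the step had been tested on simulated data. Genes without overlap between the diets were counted over the 16438 genes with values on all arrays. Exact permutation tests were run over arrays, for which 0.1 is the smallest two-sided p. Precision is limited by the number of arrays. The methods call the microarray experiments independent, and the labels do not say how many mice each holds. Array numbers name arrays and pair nothing. The 9 genes and all lists were chosen with earlier results of these data known. Named were all 9 genes with every probe, up to 4 called genes per direction of each further list by size, defining cell type markers, the 5 genes most correlated with Clec4f, Lyz1, C1qc and Apoe. Genes of the lists that were not called, such as Timd4, Cd163, Nr1h3, Il34 and Cx3cr1, were named after their values were seen. Array names were matched to current symbols through a RefSeq gene table (GRCm38.p6, for names alone), and Ly6c2 and Serpina1a were not matched. One gene of the lists is not reported here. Tables and plots were made with pandas 2.3.3 and matplotlib 3.10.9 in Python 3.11.15.

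Alternatives were, for the values, a normexp background with an offset of 50, median scaling, quantile normalization and the authors' deposited values. For the choice of probes they were no filter, a filter on all arrays, each probe tested singly and probe means. For the fit they were slide as a block, slide 1 alone, leaving out single arrays, a trended robust prior, array weights and the methods' t-test.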

Additional observations from a re-analysis of the deposited data

How the results depend on the processing

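The higher means of the 9 genes held in direction under every alternative run, with 1 exception: the mean of a gene's probes gave -0.72 for Emr1, whose dimmer probe was also at -0.22 in the authors' deposited values. The number of genes called higher, 3 of 9 by the limma comparison, was 0 with a normexp background, 0 without the filter on dim probes, 0 with slide as a block and 0 with the methods' t-test after adjustment, and 7 with array weights. It ranged from 0 to 3 when each array was left out, and the number called lower was 0 throughout. The number of ratios to Clec4f that rose without overlap, 3 of 8, ranged from 3 to 6 when each array was left out. Its highest value was without normal chow 3, and no share of all genes stands beside it. With median scaling the median of all genes moved from -0.02 to -0.26, so that the rises of Lyzs, Cd5l and Mpeg1 became 1.55, 1.18 and 0.78, of which Mpeg1 no longer passed the threshold (limma adjusted p = 0.0800). The median of the 9 genes was then 0.37 in place of 0.61, and Vsig4, C1qa and C1qb were at 0.34, 0.36 and 0.37. In the authors' deposited values the differences were 1.54, 1.18 and 0.77 for these genes, 0.33, 0.35 and 0.36 for Vsig4, C1qa and C1qb, and 0.17 and 0.04 for Clec4f and Csf1r. Over all genes, limma called 450 higher and 38 lower, against 0 and 0 with a normexp background, 26 and 0 without the filter, 329 and 73 with median scaling, 357 and 26 with quantile normalization, 335 and 55 with the filter on all arrays, 450 and 89 with the trended and robust prior, 11 and 0 with slide as a block, 2202 and 995 with array weights, 4 and 1 with the methods' t-test, and 42 and 0 to 2316 and 761 when each array was left out. The cause of these shifts was not tested. No paired analysis was possible because the array numbers do not pair the diets. Slide 2 holds high-Chol arrays alone, so slide and diet cannot be told apart for 2 of the 3 high-Chol arrays.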
